A study of Mus musculus with 4 samples.

Results

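The collagen genes of the mouse are described here across the cells of embryonic pancreas, as single-cell RNA levels in 2 libraries. They were taken as every gene present in both count tables whose symbol is Col, a number, the letter a and a number, which gave 44 of 27998 genes. No measured value entered that choice. The cells came from pancreas at embryonic day 15.5. The OGT knockout library was made from PdxCre;OGTflox/flox;CAG GFP animals, and its cells were sorted on the GFP of the Cre lineage. The control library was made from OGTflox/flox animals, labelled WT, and its cells were sorted on E-cadherin. Both genotypes thus carry the floxed Ogt allele, and the knockout adds a Cre driven by a Pdx promoter together with a GFP reporter. Cre of this kind acts in the pancreatic epithelium, so mesenchyme, mesothelium and blood cells lie outside the lineage it targets. How many embryos were used, and whether they were pooled, is not given in the sources used here. Each genotype has 2 samples in the labels that are repeat sequencing of the same material, so each counts as 1 library. No difference between genotypes has a replicate check, no test was possible, and genotype and sort cannot be told apart.

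Collagens are extracellular proteins built of 3 chains wound into a triple helix. Fibrillar collagens, such as types I, III and V, assemble into the cables that give connective tissue its strength, and fibril-associated collagens coat those cables. Type IV collagen forms the sheet-like network of basement membranes, on which pancreatic epithelium rests, and the multiplexins (types XV and XVIII) are anchored at basement membranes. Type VI collagen makes beaded filaments close to cells, and transmembrane collagens are held in the cell surface. In connective tissue the main producers are mesenchymal cells, and in cartilage type II, IX and XI collagens are made together.

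By role, the 44 genes comprised 11 fibrillar, 6 type IV, 6 type VI, 9 fibril-associated, 3 short-chain network, 2 multiplexin and 4 transmembrane collagens and 3 others. Over both libraries 30 of them had at least 20 UMIs (unique molecular identifiers, each standing for 1 captured RNA molecule), and 28 had at least 50. Another 10 had between 1 and 19 UMIs. No UMI was found for Col4a3, Col6a5, Col10a1 and Col19a1, which only says that they were not detectable at this depth. Levels are given in CPM: all UMIs of a gene in the cells of a class, divided by all UMIs of those cells and multiplied by 1000000. Intervals in parentheses are exact 95% intervals for counting error and do not cover the spread between cells or animals.

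The promoter sequences of 4 members are shown because these genes stood at the centre of the patterns below. Col3a1, which encodes the chain of type III collagen, was high in the mesenchyme and present in every class. Col18a1, Col9a1 and Col27a1 were above the leukocyte-like level in the trunk/ductal cells of the pancreatic epithelium. The bases come from RefSeq's promoter table (GRCm38.p6) and run 5′ to 3′ up to the first transcribed base or, for Col18a1, up to the nearest annotated exon. They lie at chr1:45311288-45311537 on the plus strand for Col3a1 and chr10:77166549-77166780 on the minus strand for Col18a1. Col9a1 lies at chr1:24177360-24177609 and Col27a1 at chr4:63215162-63215411, both on the plus strand. The Col27a1 window precedes a RefSeq start but lies inside the gene as annotated in GENCODE M21, which begins at 63214004. Capitals mark matches to 3 short motifs searched on both strands: the box read CCAAT (its reverse match reads ATTGG), the box read GGGCGG (its reverse match reads CCGCCC), and the element read TATAA. Where TTATAA stands, the last one has 2 overlapping matches.
Col3a1: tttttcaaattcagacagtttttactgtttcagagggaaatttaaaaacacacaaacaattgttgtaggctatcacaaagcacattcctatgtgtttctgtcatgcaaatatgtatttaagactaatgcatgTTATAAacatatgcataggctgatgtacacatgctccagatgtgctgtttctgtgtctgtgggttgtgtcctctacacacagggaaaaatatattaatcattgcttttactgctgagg
Col18a1: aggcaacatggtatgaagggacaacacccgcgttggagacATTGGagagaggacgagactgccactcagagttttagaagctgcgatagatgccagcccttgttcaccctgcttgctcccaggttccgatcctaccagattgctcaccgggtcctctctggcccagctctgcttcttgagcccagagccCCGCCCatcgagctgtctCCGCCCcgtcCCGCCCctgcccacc
Col9a1: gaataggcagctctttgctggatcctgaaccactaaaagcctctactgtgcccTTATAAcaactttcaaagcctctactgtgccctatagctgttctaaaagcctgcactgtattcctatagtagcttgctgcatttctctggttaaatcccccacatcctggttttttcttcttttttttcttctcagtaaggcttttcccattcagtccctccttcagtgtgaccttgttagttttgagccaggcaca
Col27a1: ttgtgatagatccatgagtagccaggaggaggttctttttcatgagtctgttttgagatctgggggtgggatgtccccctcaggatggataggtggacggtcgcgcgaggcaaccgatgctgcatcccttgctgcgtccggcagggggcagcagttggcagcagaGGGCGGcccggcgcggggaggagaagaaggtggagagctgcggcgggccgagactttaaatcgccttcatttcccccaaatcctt
The printed windows of Col3a1 and Col9a1 held TTATAA and none of the other motifs. Col9a1 has a second annotated start, whose window at chr1:24194953-24195186 on the plus strand is not printed and held none of the 3 motifs. That of Col18a1 held 1 match to CCAAT and 3 to the motif GGGCGG, and that of Col27a1 held 1 GGGCGG match. Over the 250 bases before 32851 mouse transcription starts, CCAAT was found in 33.8%, GGGCGG in 32.7% and TATAA in 22.8%. Of 38 such windows from the 35 collagen genes in the table, 13 held CCAAT, 22 held GGGCGG and 7 held TATAA.

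After filtering, 553 cells with 10357581 UMIs (median 16168 per cell) remained in the knockout library and 921 cells with 11810583 UMIs (median 10867) in the control library. The libraries shared 0 barcodes. Ogt, the targeted gene, stood at 56.5 CPM in the knockout library and 61.8 CPM in the control library (ratio 0.914, 0.818 to 1.02), but a tag from the 3′ end need not lie in the deleted part and so checks nothing. Cells were clustered without the collagen genes and named from other markers. Against the label of epithelial cells, both libraries held classes low in Epcam, the epithelial adhesion molecule. It stood at 795 CPM in knockout and 738 CPM in control trunk/ductal-like cells, at 109 and 13 CPM in mesenchyme-like cells, and at 128 and 32.0 CPM in leukocyte-like cells. Mesenchyme-like cells carried Pdgfra, the PDGF receptor of mesenchyme, at 77.3 CPM in knockout and 51.8 CPM in control. Mesothelium-like cells, found only among knockout cells, carried Upk3b at 514 CPM and Wt1 at 362 CPM. Leukocyte-like cells carried Ptprc, the pan-leukocyte antigen CD45, at 126 CPM in knockout and 155 CPM in control. A cluster of 89 knockout cells led by Cym and a control cluster of 94 cells led by Hbb-bs stayed unnamed.

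Over all cells, collagen RNA was many times higher in the knockout library, and the type I and type III genes made up most of it. All 44 genes together reached 3189.6 CPM in knockout cells (33037 UMIs) and 213 CPM in control cells (2513 UMIs), a ratio of 15 (14.4 to 15.6). Col3a1 stood at 953 CPM in knockout and 47.2 CPM in control (20.2-fold), and Col1a1, which encodes the α1 chain of type I collagen, at 859 and 41.7 CPM (20.6-fold). Col1a2, which encodes the α2 chain of type I collagen, stood at 532 CPM in knockout and 27.3 CPM in control (19.5-fold). Of the 30 members with at least 20 UMIs, 29 were at least 2-fold higher in the knockout library and none was 2-fold lower. Among all 13806 genes measured likewise, 27.6% were 2-fold higher and 12.9% were 2-fold lower. The median log2 ratio was 3.84 over the collagen genes and 0.33 over all genes.

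The smallest ratios over all cells belonged to cartilage-type and multiplexin members. Col9a3 reached 2.23-fold (1.79 to 2.79), Col11a2 2.06-fold (1.18 to 3.70), Col9a1 3.42-fold (2.37 to 5.02), Col2a1 3.89-fold (2.85 to 5.37) and Col9a2 5.41-fold (4.23 to 7.0). Col18a1 reached 5.67-fold (4.87 to 6.63) and Col27a1 5.50-fold (4.41 to 6.93). Col11a1, also a cartilage chain, was not among them, at 18.0-fold (6.68 to 67.9, from 4 control UMIs). The transmembrane collagen gene Col13a1 had 87 UMIs in knockout and 0 in control cells, at least 33.1-fold higher with 3 UMIs put in place of 0 over the control library. Col15a1 was the member without a 2-fold difference, with 19 UMIs in knockout and 34 in control (ratio 0.637, 0.343 to 1.15).

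The libraries differed in which cells they held, and the all-cell ratio moved with that. Mesenchyme-like cells were 142 of 553 knockout cells and 8 of 921 control cells, and mesothelium-like cells were 65 in knockout and 0 in control. Leukocyte-like cells were 79 in knockout and 714 in control. In the knockout library 64.0% of collagen UMIs lay in mesenchyme-like and 17.3% in mesothelium-like cells. In the control library 40.4% lay in the 8 mesenchyme-like cells, 29.0% in leukocyte-like and 16.3% in trunk/ductal-like cells. Without the mesenchyme-like and mesothelium-like cells the ratio of summed collagen was 6.38. With the class levels of both libraries weighted by the control library's UMI totals per class it was 3.15. Only named classes held by both libraries entered that value, so mesothelium-like cells and the unnamed clusters were left out.

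**Figure D1:**
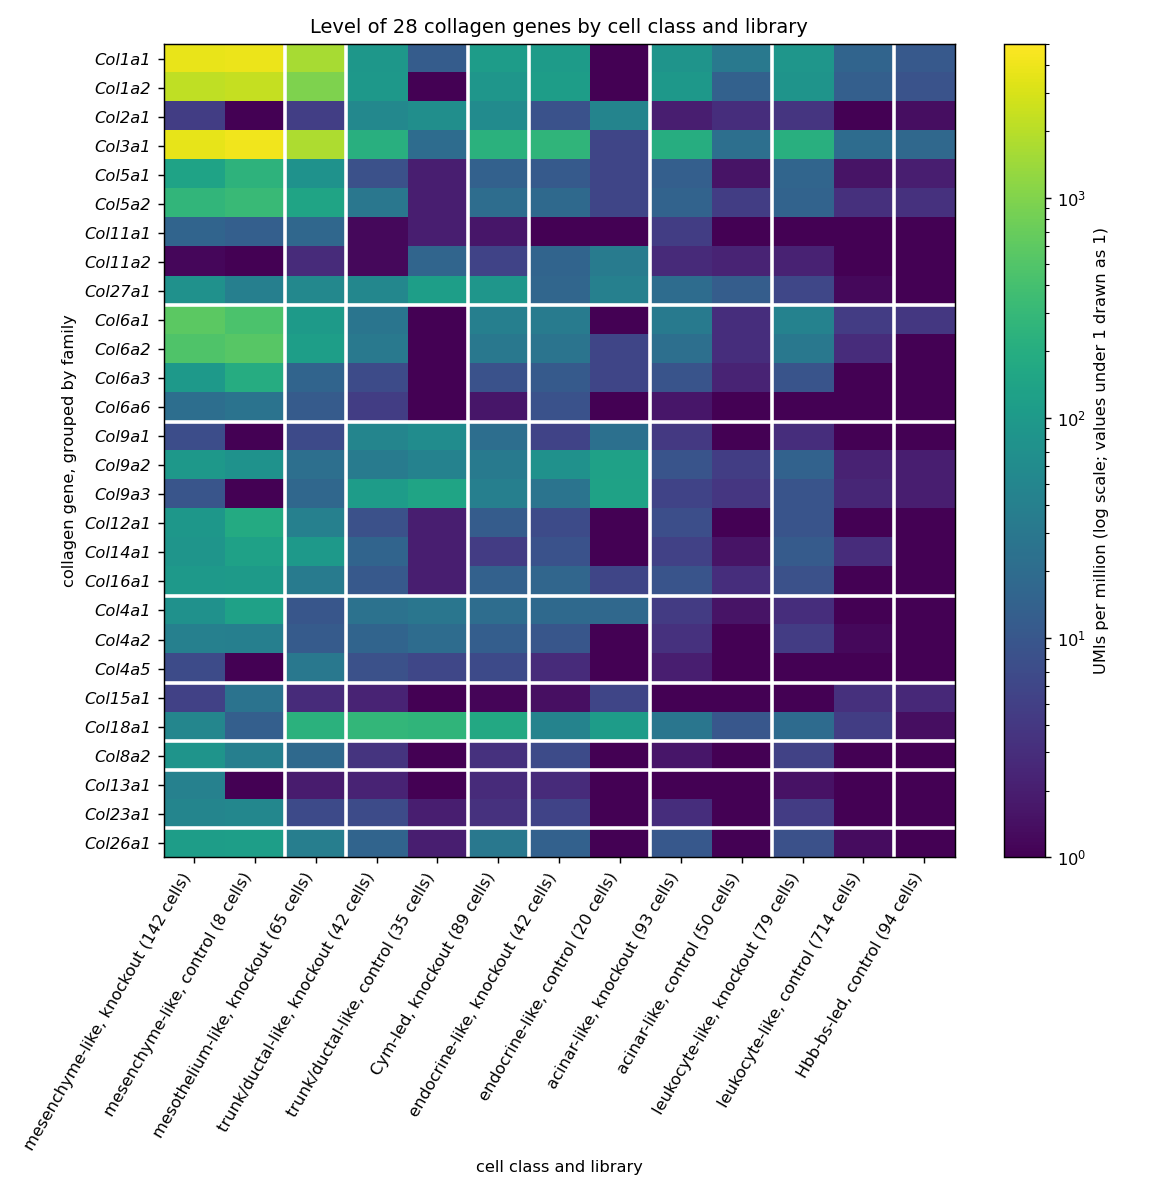
Level of the 28 collagen genes with at least 50 UMIs (rows, grouped by family) in each cell class and library (columns), in CPM on a logarithmic colour scale, with values under 1 drawn as 1. Most rows are brightest in the mesenchyme-like columns, while Col2a1, Col9a1, Col9a3 and Col18a1 are brighter in trunk/ductal-like cells.

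Mesenchyme-like cells of the knockout library held the highest collagen level of its named classes, 12274 CPM (12109 to 12441) in 142 cells. In single cells it ranged between 2229 and 35348 CPM, with a median of 11329.7. Against all other knockout cells together, 22 of 29 measured members were at least 2-fold higher, 4 were 2-fold lower and 3 lay between. The backgrounds over all genes were 12% higher and 16.7% lower. The collagen genes did not enter the clustering that defined this class.

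The fibrillar genes made up 83.1% of the collagen UMIs of these cells. Col1a1 stood at 3779 CPM in mesenchyme-like cells, 13.6-fold (13 to 14.3) above all other knockout cells. Col1a2 stood at 2206 CPM (11.1-fold) and Col3a1 at 3699.5 CPM (9.11-fold). Col5a1 and Col5a2, whose type V chains set the diameter of type I fibrils, stood at 139 CPM (6.65-fold) and 271 CPM (8.02-fold). Type VI genes held 9.69% of the collagen UMIs: Col6a1 at 591 CPM, Col6a2 at 477 CPM and Col6a3 at 99.3 CPM were 13.4-fold, 12.6-fold and 10.2-fold above the other cells.

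Among the less abundant members, the steepest ratios belonged to transmembrane and short-chain collagens. Col13a1 stood at 41.8 CPM in mesenchyme-like cells, 24.1-fold (13.7 to 45.2) above the other knockout cells, and Col23a1, also transmembrane, at 48.8 CPM, 11.1-fold (7.48 to 16.7). Col8a1 and Col8a2, whose chains form the hexagonal networks of type VIII collagen, were 20.7-fold (9.37 to 51.9) and 15.9-fold (11.3 to 22.8) above. The fibril-associated genes Col12a1, Col14a1 and Col16a1 were 7.01-fold, 4.64-fold and 7.23-fold above, and Col26a1 was 6.25-fold above. Col9a2 stood at 92.4 CPM (3.78-fold), unlike the other type IX chains. The basement membrane genes Col4a1 and Col4a2 stood at 73.2 CPM (6.45-fold) and 40.7 CPM (4.95-fold). The remaining higher members, Col6a6, Col7a1 and Col11a1, were 5.99-fold, 4.30-fold and 3.76-fold above. Between the limits lay Col27a1 (1.90), Col4a5 (1.00) and Col9a1 (0.610). The 4 lower members were Col2a1 (0.228), Col11a2 (0.279, from 2 UMIs), Col9a3 (0.351) and Col18a1 (0.467). The count of lower members does not exceed the 16.7% of all genes that were lower, so it is no result about collagens as a family. These lower members include some cartilage chains, whereas the cartilage genes Col9a2 and Col11a1 were among the higher ones. All of the lower members but Col11a2 were high in trunk/ductal-like cells.

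The 142 mesenchyme-like cells of the knockout library fell into 3 clusters with different collagen make-ups. Cluster 3, led by Itm2a and Lum beside collagens, held 106 cells at 12805 CPM of collagen. Cluster 16, led by Sfrp2 and Lox, held 22 cells at 14674 CPM, and cluster 18, led by Kazald1, Nkx2-5 and Tlx1, held 14 cells at 3822 CPM. Nkx2-5 and Tlx1 encode transcription factors known for their roles in heart and spleen development. The summed levels differed by more than counting error between each pair of clusters, and cells of 1 cluster share a library.

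Col1a1 was lowest in cluster 18, at 776 CPM, against 3848 CPM in cluster 3 and 5109 CPM in cluster 16. Col6a1 differed further, at 60.2 CPM in cluster 18, 627 CPM in cluster 3 and 729 CPM in cluster 16, as did Col6a2, at 36.1, 504 and 603 CPM in the same order. Col6a3 did not, at 102 CPM in cluster 18, 97.2 CPM in cluster 3 and 106 CPM in cluster 16. Other members were high in that low-collagen cluster. Col13a1 reached 132 CPM (83.0 to 200.5) in cluster 18, 38.6 CPM (28.4 to 51.1) in cluster 3 and 6.45 CPM (2 UMIs) in cluster 16. Col26a1 reached 193 CPM (132 to 272) in cluster 18, 108 CPM in cluster 3 and 103 CPM in cluster 16. Cluster 16 carried the highest levels of 3 other members. Col8a2 stood there at 177 CPM (134 to 231) against 57.0 CPM in cluster 3, Col12a1 at 199.9 CPM (153 to 256) against 68.3 CPM, and Col14a1 at 164 CPM (122 to 216) against 73.9 CPM. In cluster 18 Col8a2 stood at 102 CPM (59.6 to 164), an interval that overlaps that of cluster 16. Col12a1 and Col14a1 stood in cluster 18 at 48.1 and 18.1 CPM.

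Between the libraries, mesenchyme-like cells carried nearly the same amount of collagen, as far as 8 control cells can show. The summed level was 12274 CPM in knockout and 13162 CPM in control (ratio 0.933, 0.876 to 0.994), with fibrillar genes at 83.1% of collagen UMIs in knockout and 83.8% in control. Of 23 measured members, 2 were 2-fold higher, 1 was 2-fold lower and 20 lay between, against 11.1% higher and 9.64% lower over all genes. Col1a1 stood at 3779 CPM in knockout and 3874 CPM in control, and Col3a1 at 3699.5 and 4171 CPM (ratio 0.887, 0.793 to 0.995). The lower member was Col12a1, at 90.0 CPM in knockout and 181 CPM in control (0.496, 0.287 to 0.929). The higher members rested on 1 and 3 control UMIs. They were Col18a1 (ratio 3.86, 0.674 to 154), whose ratio was 0.373 at a coarser clustering, and Col8a2 (2.14, 0.717 to 10.5). Col13a1 had 72 UMIs in knockout and 0 in control, where 0 UMIs allow up to 47.8 CPM. All 8 control cells lay in cluster 3, whereas the knockout values pool clusters 3, 16 and 18. In cluster 3 alone, summed collagen was 12805 CPM in knockout and 13162 CPM in control. Col8a2 stood there at 57.0 CPM in knockout and 38.9 CPM in control, less than 2-fold apart. Col12a1 stood at 68.3 and 181 CPM, and Col18a1 at 57.8 CPM in knockout against 1 UMI in control. The 18 leukocyte markers summed to 840.1 CPM in knockout and 6581 CPM in control mesenchyme-like cells. The part of these markers in the ratios was not tested.

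**Figure D2:**
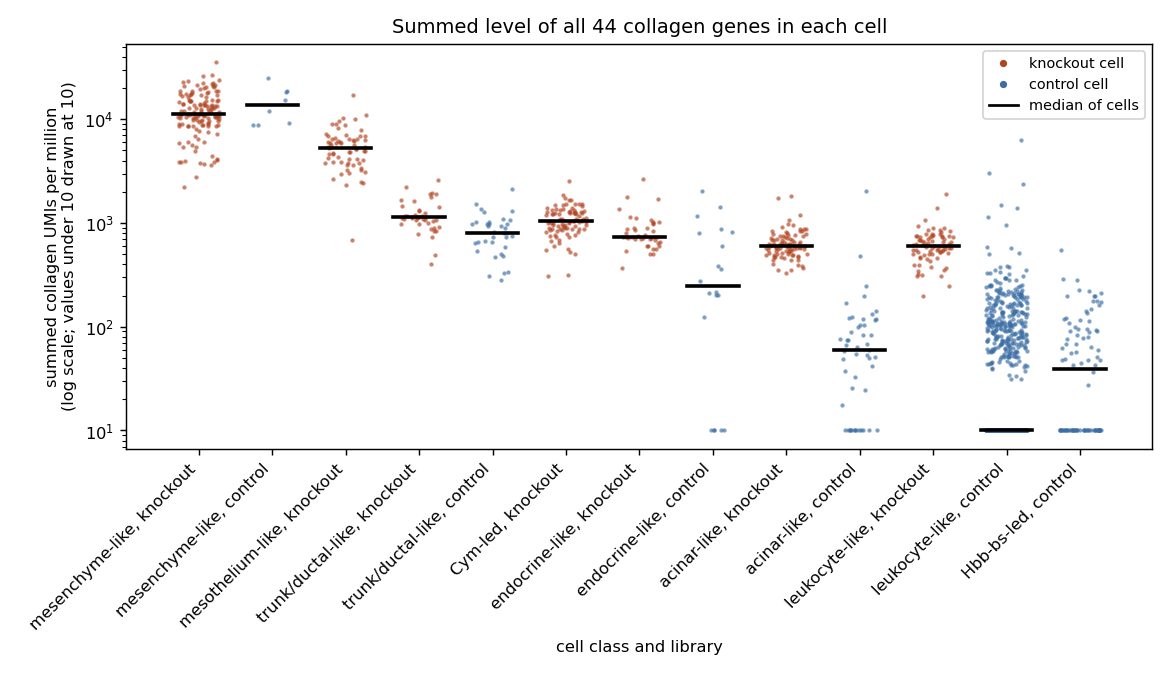
Summed level of all 44 collagen genes in each cell, in CPM on a log axis, by cell class and library, with black bars at the median of cells and values under 10 drawn at 10. Knockout cells of all classes shown lie at 199.6 or above, whereas 394 of 714 control leukocyte-like cells hold no collagen UMI.

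Mesothelium-like cells of the knockout library, the covering layer of the organ, held less collagen than mesenchyme-like cells and a different mix. The summed level was 5505 CPM (5363 to 5649) in 65 mesothelium-like cells and 12274 CPM in mesenchyme-like cells (ratio 0.448, 0.435 to 0.462). Of 26 measured members, 2 were at least 2-fold higher, 16 were 2-fold lower and 8 lay between. Over all genes 6.75% were higher and 8.24% lower, and the median log2 ratio was -1.20 over the members and -0.03 over all genes. These are cells of 1 library, so the ratios compare cells and not animals.

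The higher members were Col18a1 and Col4a5, both of basement membranes. Their count lies near the 6.75% of all genes that were higher and is no result about collagens as a family, so they are given singly. Col18a1 stood at 232 CPM in mesothelium-like and 50 CPM in mesenchyme-like cells (4.63, 3.61 to 6.0). Col4a5, which encodes the α5 chain of type IV collagen, stood at 30.7 and 6.97 CPM (4.41, 2.21 to 9.40). After each cell was thinned to 5000 UMIs, a Col4a5 UMI was seen in 20% of mesothelium-like and 1.41% of mesenchyme-like cells. Col4a1 and Col4a2 went the opposite way, with Col4a1 at 9.61 CPM in mesothelium-like and 73.2 CPM in mesenchyme-like cells (0.131) and Col4a2 at 11.5 and 40.7 CPM (0.284).

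Of the 7 measured fibrillar genes, Col1a1 at 0.430, Col1a2 at 0.441 and Col3a1 at 0.480 were lower in mesothelium-like cells, close to the summed ratio. The other 4 lay between the limits, with Col5a1 at 0.551, Col5a2 at 0.538 and Col27a1 at 0.729 (0.523 to 1.01). Of the 4 measured type VI genes 3 were lower still, at 0.174 for Col6a1, 0.248 for Col6a2 and 0.155 for Col6a3, while Col6a6 stood at 0.536 (0.255 to 1.05). Col13a1 had the lowest ratio, 0.0459 (0.00546 to 0.172), and Col23a1 and Col8a1 stood at 0.138 and 0.150. Col14a1 at 1.14 (0.879 to 1.48) and Col11a1 at 1.10 (0.572 to 2.08) lay close to 1. Type VI collagen made up 4.5% of collagen UMIs in mesothelium-like and 9.69% in mesenchyme-like cells, while the fibrillar share was 84.9% and 83.1%.

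**Figure D3:**
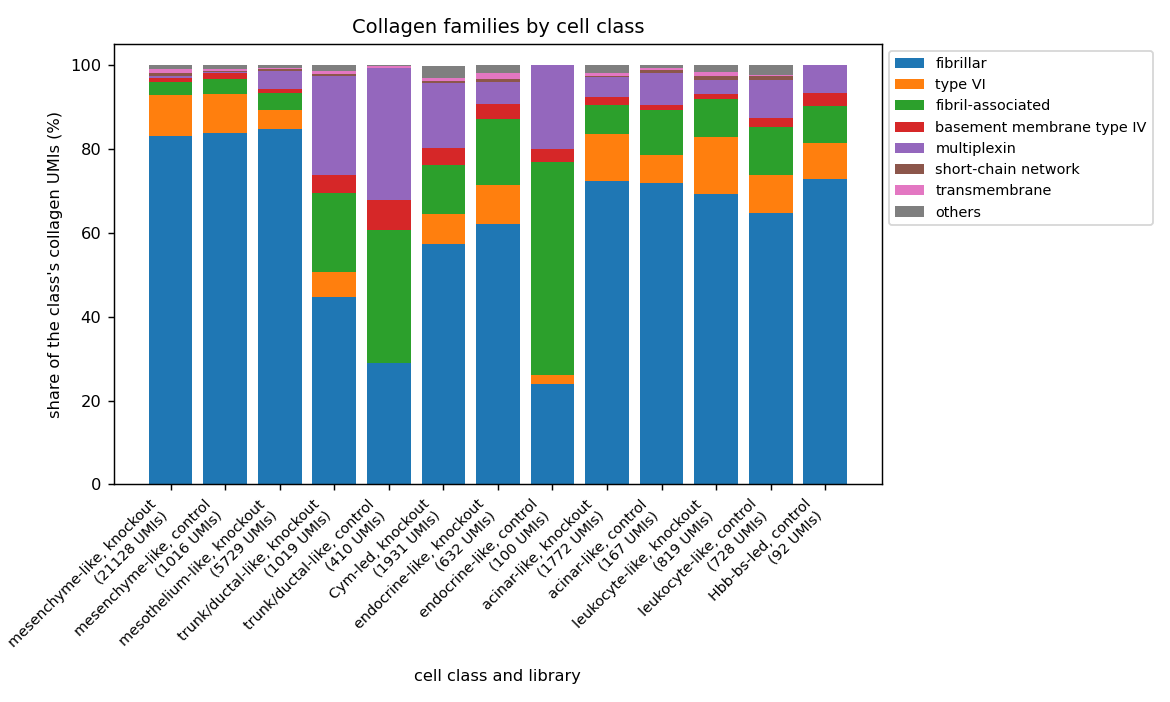
Share of each class's collagen UMIs, in percent, taken by each collagen family, by cell class and library. Fibrillar genes take 83.1% in knockout mesenchyme-like cells, 44.8% in knockout trunk/ductal-like cells and 29.0% in control trunk/ductal-like cells.

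Trunk/ductal-like cells, the progenitors of the pancreatic ducts and their derivatives, carried a set of basement membrane and cartilage-type collagens in both libraries. Since free RNA gives UMIs in cells that do not express a gene, levels were read against leukocyte-like cells of the same library, which are not known as collagen producers. In the knockout library 7 of 17 measured members were at least 2-fold above that level and none was 2-fold below (backgrounds 15.6% and 15.2%). In the control library 7 of 15 were above and 1, Col1a2 with 0 UMIs, was below (backgrounds 20.2% and 16.4%).

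Col18a1 stood at 283 CPM in knockout trunk/ductal-like cells and 260.0 CPM in control ones. In leukocyte-like cells it stood at 19.7 CPM in knockout and 4.71 CPM in control, so that the trunk/ductal level was 14.4-fold (9.59 to 22.5) above in knockout and 55.3-fold (38.4 to 81.2) in control. After thinning to 5000 UMIs a cell, 76.2% of 42 knockout and 68.6% of 35 control trunk/ductal-like cells showed a Col18a1 UMI. The same shares in leukocyte-like cells were 8.97% in knockout and 1.24% in control. Unthinned they were 95.2% and 91.4% in trunk/ductal-like and 29.1% and 4.06% in leukocyte-like cells, at median depths of 18309.5 and 12921 UMIs and of 15087 and 10276 UMIs.

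Type IX collagen, which decorates type II fibrils in cartilage, needs chains from Col9a1, Col9a2 and Col9a3, and all 3 were above the leukocyte level. Col9a3 stood at 111 CPM in knockout and 147 CPM in control trunk/ductal-like cells, 12.3-fold and 58.1-fold above leukocyte-like cells. Col9a1 stood at 48.6 CPM in knockout and 62.5 CPM in control, 16.1-fold and 129-fold above. Col9a2 stood at 34.4 and 44.3 CPM, 2.39-fold and 19.3-fold above. The proportions between the chains were close in the libraries: per Col9a3 UMI there were 0.436 Col9a1 UMIs in knockout (0.295 to 0.636) and 0.425 in control (0.270 to 0.655). Col2a1, the type II chain, stood at 53.4 CPM in knockout and 66.5 CPM in control, 14.1-fold and 78.7-fold above leukocyte-like cells. The type XI gene Col11a1 was not part of this set: in knockout trunk/ductal-like cells it stood at 7.56% (0.185 to 45.9) of the mesenchyme-like level.

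Col27a1, a fibrillar collagen also known from cartilage, stood at 51.0 CPM in knockout and 119 CPM in control trunk/ductal-like cells, 8.42-fold and 98.6-fold above leukocyte-like cells. The type IV genes Col4a1 and Col4a2, which lie head to head on chromosome 8 on opposite strands, were low but present. Col4a1 stood at 24.9 CPM in knockout and 28.2 CPM in control, and Col4a2 at 15.4 and 20.2 CPM. Sox9, which encodes a transcription factor that marks pancreatic progenitors and is known to activate Col2a1 and Col9a1 in cartilage, stood at 154 CPM in knockout and 304 CPM in control trunk/ductal-like cells. Its part in these levels was not tested.

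Between the libraries, trunk/ductal-like cells differed mainly in genes that were near the leukocyte level. The summed level was 1208 CPM in knockout and 826 CPM in control (1.46, 1.30 to 1.64). Of 14 measured members, 6 were 2-fold higher, 1 was 2-fold lower and 7 lay between, against 4.90% higher and 4.96% lower over all genes. The higher ones were Col1a1 (7.45, 3.27 to 20.9), Col3a1 (10.5, 5.59 to 22.3), Col5a2 (14.7, 2.41 to 604, with 1 control UMI), Col1a2, Col6a1 and Col6a2. The last 3 had 0 control UMIs and were at least 15.7-fold, 4.51-fold and 5.10-fold higher with 3 UMIs in place of 0 over the control cells. Those 3 and Col5a2 thus reached the UMI limit for a ratio almost wholly through the knockout cells. The count of 6 is therefore not read as an excess over the background. In knockout cells Col1a1, Col1a2 and Col3a1 stood at 1.02, 1.15 and 0.987 times the knockout leukocyte-like level, so these levels were close to those of leukocyte-like cells. Where that RNA came from was not tested. The lower member was Col27a1 (0.429, 0.283 to 0.646). Of the members above the leukocyte-like level in both libraries, these lay between the limits: Col18a1 at 1.09 (0.876 to 1.36), Col9a3 at 0.758 (0.552 to 1.04), Col9a1 at 0.778, Col9a2 at 0.776 and Col2a1 at 0.802 (0.501 to 1.30).

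The share taken by each family differed with this. Fibrillar genes made up 44.8% of collagen UMIs in knockout and 29.0% in control trunk/ductal-like cells, multiplexins 23.7% and 31.5%, and fibril-associated genes 18.9% and 31.7%. Type IV genes made up 4.22% (3.07 to 5.64) in knockout and 7.07% (4.79 to 10.0) in control. The 22 mesenchyme markers, none of them a collagen, summed to 2708 CPM in knockout and 1768 CPM in control trunk/ductal-like cells, with 21 of 22 detected in knockout and 11 of 22 in control. Pdgfra and Pdgfrb were at 0 in the control cells. Their part in the collagen differences was not tested.

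The Cym-led cluster, 89 knockout cells with Epcam at 601 CPM and Sox9 at 172 CPM, shared most of the trunk/ductal collagens. Of 20 measured members, 9 were at least 2-fold above the knockout leukocyte-like level and 1 was below (backgrounds 21.6% and 14.0%). Col2a1 stood at 61.2 CPM (16.2-fold above), Col27a1 at 88.1 CPM (14.6-fold), Col18a1 at 168 CPM (8.56-fold) and Col9a1 at 21.9 CPM (7.23-fold). Against trunk/ductal-like cells of the same library none of 20 members was 2-fold higher and 3 were lower, with backgrounds of 7.40% and 3.68%. The lower ones were Col14a1 (0.291), Col9a3 (0.352, 0.255 to 0.485) and Col9a1 (0.450, 0.283 to 0.716). Col18a1 stood at 0.594 (0.50 to 0.707) and Col27a1 at 1.73 (1.23 to 2.48).

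**Figure D4:**
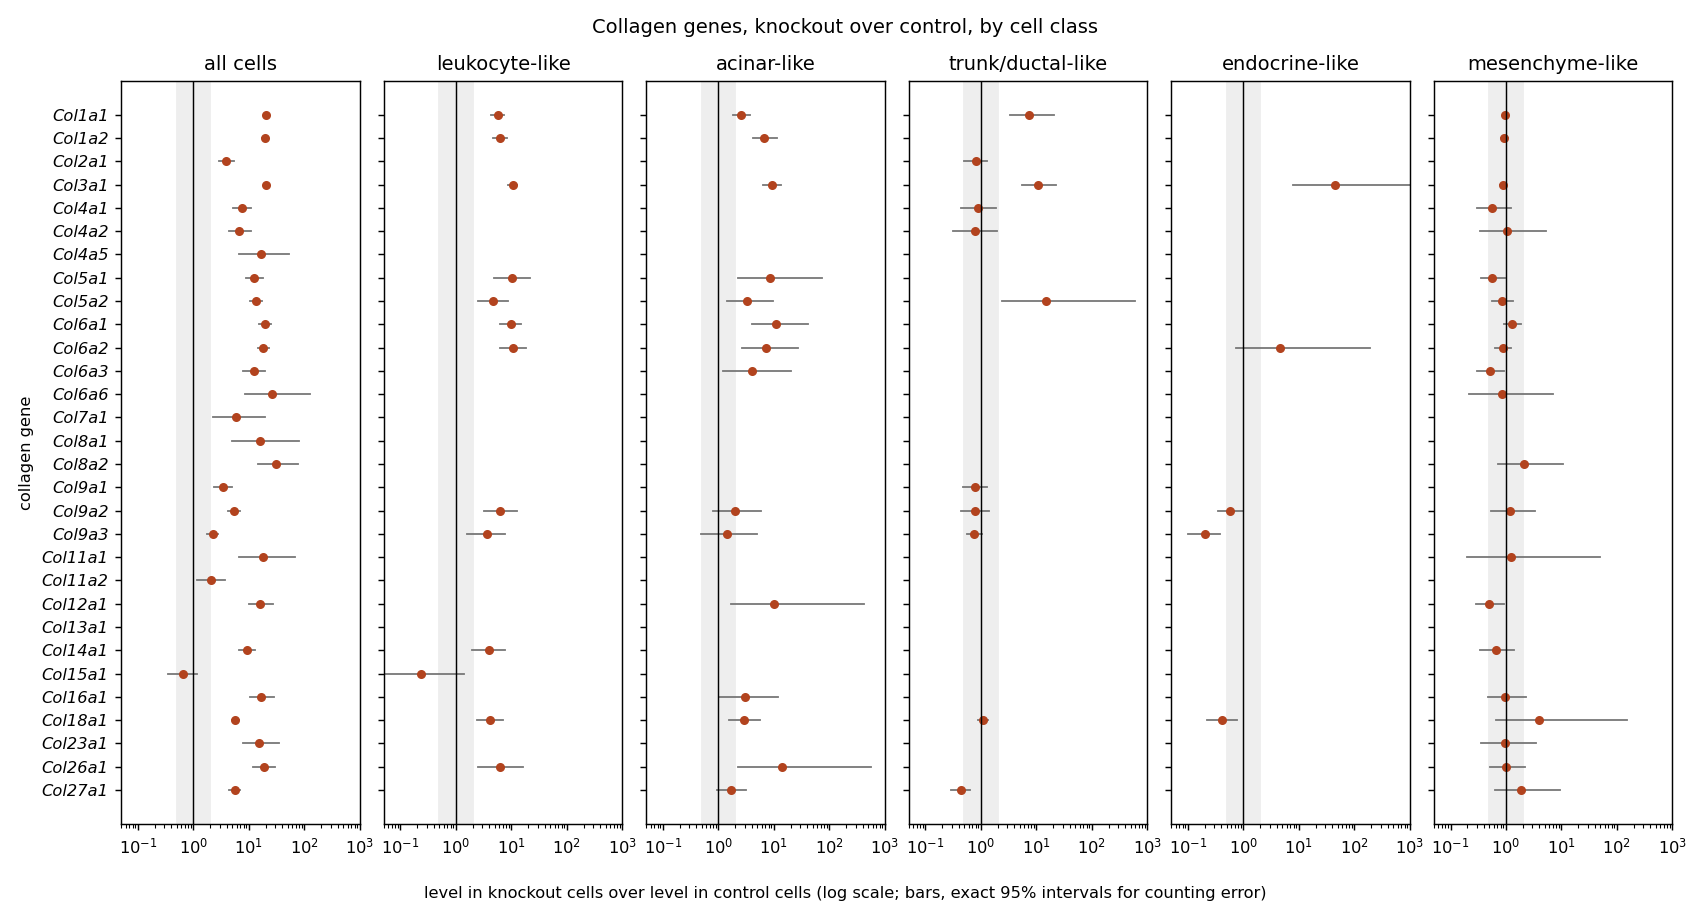
Ratio of knockout to control level for each collagen gene with at least 20 UMIs over both groups, by cell class, on a log axis, with bars for exact 95% counting intervals, grey bands for 2-fold either way, and members with 0 UMIs on a side not drawn. Ratios in mesenchyme-like cells lie mostly in the grey band, and those of Col1a1 and Col3a1 lie to its right in the other panels that show them.

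Endocrine-like cells also carried type IX and type XVIII collagen RNA, in both libraries. Above the leukocyte-like level by at least 2-fold were 5 of 15 measured members in knockout (backgrounds 21.9% higher, 17.6% lower) and 4 of 11 in control (backgrounds 24.9% and 15.3%). Below it by at least 2-fold were none in knockout and 1 in control, Col3a1 (0.287, 0.00721 to 1.62, from 1 UMI). With so few measured members these counts lie too near the backgrounds to be a result about collagens, and the genes are given singly. Col9a2 stood at 74.5 CPM in knockout and 129 CPM in control endocrine-like cells, 5.18-fold and 56.1-fold above leukocyte-like cells. Col9a3 stood at 26.7 and 134 CPM, 2.94-fold and 53.0-fold above. Col18a1 stood at 45 CPM in knockout and 111 CPM in control, 2.29-fold and 23.6-fold above.

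Relative to control, knockout endocrine-like cells were lower in Col9a3 (0.199, 0.102 to 0.382) and Col18a1 (0.405, 0.223 to 0.757) and higher in 5 of 8 measured members. The backgrounds were 6.45% lower and 11.8% higher. The higher members were fibrillar and type VI genes: Col3a1 with 185 knockout UMIs and 1 control UMI (44.5, 7.89 to 1767), Col1a1, Col1a2, Col6a1 and Col6a2. Col1a1, Col1a2 and Col6a1 had 77, 81 and 25 knockout UMIs and 0 control UMIs. Col6a2 had 19 knockout UMIs, and all type VI genes together had 2 control UMIs. These members thus reached the limit of 20 UMIs almost wholly through the knockout cells, and their counts give bounds more than measured ratios. In knockout, Col1a1 was 1.22 times and Col3a1 1.21 times the leukocyte-like level. Only 20 control cells entered, and 5 of them held 75% of their collagen UMIs. At a finer clustering the Col18a1 ratio was 1.81, and without the 5 highest cells of each group it was 1.03.

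The endocrine-like class held cells with and without a UMI of Neurog3, the transcription factor of endocrine progenitors. Lack of a UMI does not show that a cell lacks the RNA. Among knockout cells 21 had a Neurog3 UMI and 21 had none, and among control cells 12 had one and 8 had none. Col9a3 stood at 35.4 CPM in knockout cells with Neurog3 and 17.5 CPM in those without, and at 204 and 15.8 CPM in control. Col18a1 stood at 68.0 and 20.4 CPM in knockout and at 167 and 15.8 CPM in control. Col11a2, a minor chain of cartilage fibrils, stood at 29.9 CPM (11 UMIs) in knockout cells with Neurog3 and was not seen in those without, and at 46.3 and 15.8 CPM in control. Col9a2 differed less, at 73.4 CPM with and 75.7 CPM without Neurog3 in knockout and 111 and 158 CPM in control. Median depth was 16939 and 16070.0 UMIs in knockout and 7576 and 7025 UMIs in control cells with and without a Neurog3 UMI. The control values without one rest on 8 cells.

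Acinar-like and leukocyte-like cells of the knockout library held nearly the same collagen level, and far more than those of the control library. Acinar-like cells, the enzyme-producing cells of the exocrine pancreas, stood at 604 CPM in knockout and 129 CPM in control (4.68, 3.99 to 5.52). Leukocyte-like cells stood at 620.0 CPM in knockout and 87.9 CPM in control (7.06, 6.38 to 7.81). No knockout cell of either class lacked a collagen UMI, whereas 13 of 50 control acinar-like and 394 of 714 control leukocyte-like cells did.

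In acinar-like cells 12 of 15 measured members were at least 2-fold higher in knockout and none was lower, against 6.59% and 5.82% over all genes. Of the higher ones, Col5a1, Col6a1, Col6a2, Col6a3, Col12a1, Col16a1 and Col26a1 had between 1 and 4 control UMIs. They reached the UMI limit for a ratio almost wholly through the knockout cells, so the count of 12 is not read as an excess. Control UMIs were 41 for Col1a1, 18 for Col1a2, 29 for Col3a1, 13 for Col18a1 and 6 for Col5a2. Col3a1 stood at 203 CPM in knockout and 22.4 CPM in control (9.05, 6.23 to 13.6), and Col1a1 at 82.2 and 31.7 CPM (2.59, 1.86 to 3.70). Col27a1 (1.65, 0.940 to 3.08), Col9a2 (1.98) and Col9a3 (1.41) lay between the limits. The classes rest on separate clusters. The 93 knockout cells formed cluster 7 and 49 of the 50 control cells cluster 12. Without the 1 control cell in cluster 7 the summed ratio was 9.01, and without the 5 highest cells of each group it was 10.5.

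In leukocyte-like cells 12 of 13 measured members were at least 2-fold higher in knockout, against 11.0% of all genes. The other, Col15a1, had 1 knockout and 27 control UMIs (0.232, 0.00567 to 1.41), against 8.04% lower over all genes. Col3a1 stood at 215 CPM in knockout and 20.4 CPM in control (10.5, 8.68 to 12.8), and Col1a1 at 88.6 and 15.7 CPM (5.65, 4.36 to 7.30). Knockout cells lay mostly in clusters 2, 15 and 17, led by S100a8, Cd7 and Cpa3, and control cells mostly in clusters led by macrophage and monocyte genes. In cluster 2, which both libraries share, summed collagen was 676 CPM in 22 knockout cells and 41.1 CPM in 126 control cells.

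Set against the leukocyte-like cells of its own library, the knockout acinar-like class showed 1 member 2-fold higher, 1 lower and 14 between (backgrounds 11.7% and 19.6%). The higher one was Col27a1, at 20.5 CPM in acinar-like and 6.06 CPM in leukocyte-like cells (3.38, 1.61 to 8.18), and the lower one was Col14a1 (0.450). In the control library Col27a1 stood at 12.4 CPM in acinar-like and 1.21 CPM in leukocyte-like cells (10.3, 4.37 to 25.3), the largest of 4 such ratios among 12 members (backgrounds 15.3% and 25.7%). The 14 members between are not read as acinar expression. The 22 mesenchyme markers moved with collagen. They summed to 1244 CPM in knockout and 148 CPM in control leukocyte-like cells, with 20 and 21 of 22 detected, and to 2423 and 987 CPM in acinar-like cells, with 21 and 15 detected. Dcn stood at 68.9 CPM in knockout and 12.7 CPM in control leukocyte-like cells. Their part in the collagen levels was not tested.

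The proportions of fibrillar transcripts in the other knockout classes were not those of the mesenchyme-like cells. Per Col1a1 UMI there were 0.979 Col3a1 UMIs (0.946 to 1.01) in knockout mesenchyme-like cells and 1.09 in mesothelium-like cells. The same proportion was 2.43 in leukocyte-like, 2.47 in acinar-like, 2.40 in endocrine-like and 2.36 in trunk/ductal-like cells of that library. In control cells it was 1.08 in mesenchyme-like and 1.30 in leukocyte-like cells and 0.707 in acinar-like cells. Col1a2 per Col1a1 UMI stood at 0.584 in knockout mesenchyme-like, 0.599 in mesothelium-like, 0.932 in leukocyte-like and 1.14 in acinar-like cells. The Col3a1 to Col1a1 proportion was higher in 5 knockout classes outside mesenchyme and mesothelium than in either of those, the Cym-led cluster included at 2.11.

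**Figure D5:**
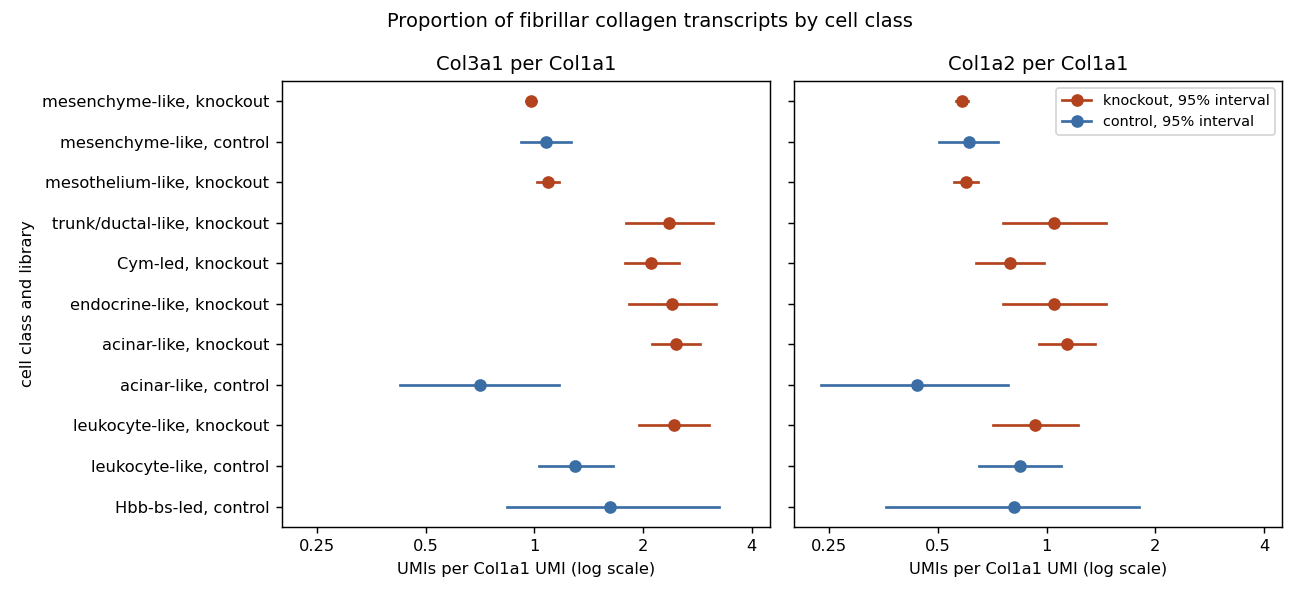
UMIs of Col3a1 (left) and Col1a2 (right) per Col1a1 UMI in each cell class and library, on a log axis, with exact 95% counting intervals as bars. Knockout mesenchyme-like and mesothelium-like cells lie at 0.979 and 1.09 for Col3a1, and the other knockout classes lie between 2.11 and 2.47.

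The genes that fold, export, cross-link and degrade collagen were followed as fixed lists, first in knockout mesenchyme-like cells against all other knockout cells. Of the 19 measured folding and modification genes (of 20 listed), 13 were at least 2-fold higher and none was lower. Their median log2 ratio was 1.61, against -0.03 over all genes. In this comparison 12% of all genes were at least 2-fold higher and 16.7% lower, which is the background for each list. Serpinh1, the collagen-specific chaperone HSP47, stood at 1956 CPM in mesenchyme-like cells (3.05-fold). P3h3, a prolyl 3-hydroxylase, was 9.67-fold above. The general folding enzymes Ppib and P4hb lay near 1, at 0.948 and 1.11.

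All 4 measured lysyl oxidase genes (of 5 listed) were 2-fold higher in mesenchyme-like cells, with Lox at 203 CPM (11.0-fold) and Loxl1 at 113 CPM (4.47-fold). These enzymes cross-link collagen fibrils. Of 7 measured export and processing genes (of 11) 5 were higher and none lower, including Pcolce, the enhancer of procollagen C-proteinase, at 7.17-fold. Mia2 stood at 0.680. Of the 9 fibril-associated proteoglycans and matricellular genes, Dcn, Lum, Postn, Ogn and Sparc were among the markers used to name the class, so no count is given for this list. Of the other 4, Bgn, the small proteoglycan biglycan, was 13.9-fold and Tnc 6.02-fold above, while Fn1, which encodes fibronectin, stood at 1.02 and Fmod at 0.470.

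Of 9 measured degradation genes (of 10), 7 were higher in mesenchyme-like cells. Among them were the matrix metalloproteinases Mmp2 at 9.27-fold and Mmp14 at 5.95-fold and the inhibitor Timp2 at 3.10-fold. Mmp8 (0.232) and Mmp9 (0.433), the neutrophil collagenase and gelatinase, were lower. With a list of this size, that count lies too near the background of 16.7% to be a result about the list. Of 5 measured receptors (of 9), the receptor kinase Ddr2 (7.15-fold) and Itga11 (11.5-fold) were higher and Lair1, a leukocyte receptor for collagen, was lower (0.167). Of 13 measured basement membrane genes (of 15) 4 were higher, 2 lower and 7 between, against 12% higher and 16.7% lower over all genes. The 2 lower ones lie near that background and are no result about the list. Nid1 stood at 7.83-fold and Lama5, the laminin α5 chain of epithelia, at 0.179.

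Members with under 20 UMIs in all are given by their counts. Col5a3, a type V chain, had 13 of its 16 UMIs in knockout mesenchyme-like cells, and the transmembrane Col25a1 and Col17a1 had 10 of 15 and 5 of 7 there. Col4a6 had 15 UMIs, 5 of them in mesothelium-like cells. Col20a1 had 11, Col4a4 had 9, Col22a1 had 5, Col24a1 had 3, Col6a4 had 2 and Col28a1 had 1.

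In trunk/ductal-like cells basement membrane genes other than collagens were above the leukocyte-like level beside Col18a1 and the type IV genes. Of 7 measured in knockout 6 were at least 2-fold above and 1 below, against 15.6% and 15.2% of all genes. Of 8 in control 7 were above and 1 below, against 20.2% and 16.4%. Lamb1 stood at 93.7 CPM in knockout and 92.7 CPM in control trunk/ductal-like cells, and Lamc1 at 72.3 and 113 CPM. Between the libraries none of the 7 measured in trunk/ductal-like cells passed 2-fold either way, nor did any of 13 measured folding genes. Over all genes 4.90% were higher and 4.96% lower, so with lists of this size these counts are no result about the lists. Serpinh1 stood there at 599 CPM in knockout and 474 CPM in control.

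Over all cells the lists were higher in knockout beside the collagens. All 13 measured basement membrane genes, 8 of 9 proteoglycan and matricellular genes, 11 of 19 folding genes, 5 of 7 export genes, 3 of 4 cross-linking genes, 6 of 9 degradation genes and 3 of 5 receptors were at least 2-fold higher, against 27.6% of all genes. Lower by 2-fold were Plod1, a lysyl hydroxylase, at 0.410 and Lair1 at 0.0710, against 12.9% of all genes. The median log2 ratios were 2.67 for basement membrane, 3.80 for proteoglycan and 2.52 for folding genes, and 0.33 over all genes. The difference in cell classes described for the collagens applies to these values as well.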

How the data were processed

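The deposited tables, 1 per genotype, hold whole-number UMI counts for each gene in each cell. The submitters' processing notes name Cell Ranger 2.0.0, Seurat 2.0, DESeq2 1.14.1 and the mm10 build. The authors' filters, the chemistry and the read depth were not given in the sources used here. The runs of a genotype could not be separated, so n is 1 library per genotype.

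Of 27998 identifiers, 27645 took a symbol from GENCODE M21, and the other 353 held 0.0311% of knockout and 0.0274% of control UMIs. Barcodes with under 500 genes or over 10% mitochondrial UMIs were dropped, as were doublets found by Scrublet (8 knockout, 4 control). Cells of both libraries were clustered together with scanpy 1.11.5 on 2000 variable genes without collagens (30 components, 15 neighbours, Leiden resolution 1, leidenalg 0.10.2). Clusters were named by the best-matching marker list, which needed 5 detected markers (50 CPM or more and 0.25 or more of that marker's top cluster). This naming was settled after the data were seen. Members and lists were chosen with earlier results of these data known.

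Counts were pooled by class and library and scaled to CPM. Members with at least 20 UMIs over 2 groups were given a ratio and called at 2-fold, with 3 UMIs in place of 0. Intervals are exact, at 95% (scipy 1.17.1), and cover counting error only. The interval calculation was checked on simulated data. Members with at least 50 UMIs are given by class. Of each pathway list, members with the most UMIs and some past 2-fold are named. Alternatives covered the filters, doublets, clustering, totals, UMI limits, TMM scaling (edgeR 4.0.16), DESeq2 1.42.0 size factors, means over cells and leaving out the 5 highest cells. Genotypes were not tested, since each has 1 library.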

Additional observations from a re-analysis of the deposited data

Results flagged for a closer look

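For 6 collagen genes the ratio of knockout to control lay above 1 in some cell classes and below 1 in another, with counting intervals on either side of 1. The share of all genes that meet this rule was not computed, so the count is no result about collagens as a family. With 1 library for each genotype the difference between classes was not tested. In each case the class below 1 was mesenchyme-like, with 8 control cells, or endocrine-like, with 20 control cells.

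Col3a1, which encodes type III collagen, had ratios of 10.5 in trunk/ductal-like, 9.05 in acinar-like, 44.5 in endocrine-like and 10.5 in leukocyte-like cells, and of 0.887 in mesenchyme-like cells. Col5a1, a type V chain, had 8.60 in acinar-like and 10.1 in leukocyte-like cells, and 0.566 in mesenchyme-like cells. Col6a3, a type VI chain, had 3.97 in acinar-like and 0.511 in mesenchyme-like cells, and Col12a1, which binds to fibrils, had 10.1 and 0.496 in the same classes.

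Col9a3, a type IX chain, had a ratio of 3.58 in leukocyte-like and 0.199 in endocrine-like cells. Col18a1, the multiplexin, had 2.85 in acinar-like, 4.18 in leukocyte-like and 0.405 in endocrine-like cells, and that last value turned above 1 in some alternatives.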

How the results depend on the processing

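No paired analysis was possible because the 2 samples of a genotype are runs of 1 library whose cells carry no run label, and for the same reason no replicate could be left out. The all-cell ratio of summed collagen, 15 as reported, was 12 under TMM scaling, 12 under DESeq2 scaling, 16.0 with totals without abundant genes, 18.0 as a mean of cells' own levels and 19.3 without the 5 highest cells of each group. An alternative chosen after seeing the data gave 6.38 without mesenchyme-like and mesothelium-like cells. Another so chosen, at control UMI shares of the named classes held by both libraries, gave 3.15. The leukocyte-like ratio of 7.06 became 6.09 with looser cell filters, 7.84 with doublets kept, 9.92 with each library clustered alone, 10.2 without the 5 highest cells and 10.1 without the Cd7-led and Cpa3-led clusters (added after seeing the data). The acinar-like ratio of 4.68 became 5.82 as a mean of cells' own levels, 10.5 without the 5 highest cells and 9.01 without the control cell in cluster 7. The share of knockout collagen UMIs in mesenchyme-like and mesothelium-like cells together was 81.3%, and 80.7% with looser filters, 79.7% with doublets kept, 87.9% as a mean of cells' own levels and 78.9% without the 5 highest cells. Collagen in knockout mesenchyme-like cells, 12274 CPM, was 12028 with doublets kept, 11983 under TMM, 11765 under DESeq2 scaling, 16659 with totals without abundant genes, 12479 as a mean of cells' own levels and 11848 without the 5 highest cells. The 2 members higher in mesothelium-like cells became 4 with members of at least 1 UMI and 1 with at least 100 UMIs. Col18a1 turned round in mesenchyme-like cells, at 0.373 with resolution 0.5, and in endocrine-like cells, at 1.81 with resolution 2 and 1.03 without the 5 highest cells. The cause of these changes was not tested. Of 731 recomputed ratios of single genes or classes past 2-fold, 728 kept their direction and 713 stayed past 2-fold. Depth limits members with few UMIs, above all among the 8 mesenchyme-like and 20 endocrine-like control cells.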

Other observations

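Col15a1, the second multiplexin gene, had most of its control UMIs in leukocyte-like cells, although its highest control level was in the 8 mesenchyme-like cells, 25.9 CPM from 2 UMIs. Of its 34 control UMIs, 11 lay in 10 cells of the cluster led by Bcl2a1b, at 6.25 CPM, and 7 lay in the cluster led by Cd74, at 4.66 CPM. Leukocyte-like cells as a class stood at 0.757 CPM in knockout, from 1 UMI, and at 3.26 CPM in control. Col20a1 had 7 UMIs in control leukocyte-like cells and none in knockout ones, too few for a ratio.

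Several members lie side by side in the genome (GENCODE M21, GRCm38). Col6a2 and Col6a1 lie 85161 bases apart on chromosome 10. In knockout cells Col6a1 stood at 103 CPM in mesothelium-like and 591 CPM in mesenchyme-like cells, and Col6a2 at 118 and 477 CPM. Col9a1 and Col19a1 lie 9205 bases apart on chromosome 1. Col9a1 had 120 UMIs in the knockout and 40 in the control library, whereas Col19a1 had 0 in both. Col4a6 and Col4a5 lie 1308 bases apart on the X chromosome. Both had their highest knockout level among named classes in mesothelium-like cells, Col4a5 at 30.7 CPM from 32 UMIs and Col4a6 at 4.80 CPM from 5 UMIs.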
